A study of Mus musculus with 2 samples.

Results

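The 10 genes described here are Trp53, which encodes the transcription factor p53, and 9 genes that p53 activates or that act with those targets at the mitochondrion: Mdm2, Ccng1, Trp53inp1, Phlda3, Zmat3, Bax, Bbc3, Bcl2 and Mcl1. They were taken by symbol from the 19144 genes of a count table, and all 10 were present. Cdkn1a, the p53 target that encodes the cyclin-dependent kinase inhibitor p21, was the gene they were set against. Whether its level reports p53 activity in these cells was not tested. The cells came from primary neurospheres, colonies that grow in suspension, seeded with tissue from around the lateral ventricles of CD1 mouse embryos. Their serum-free medium contained LIF (leukemia inhibitory factor, 10 ng/mL), which supports the primitive class of neural stem cell. Their polyadenylated RNA was counted by Drop-seq, a droplet method in which each captured cell has a barcode and each molecule a unique molecular identifier (UMI). Both labelled samples belong to this 1 group, every cell had LIF, and there was no untreated, irradiated or p53-deficient group. The sources used here do not state the embryonic stage or how many embryos were pooled, nor what the additive EFH in the protocol is.

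p53 is held low in unstressed cells by Mdm2, the ubiquitin ligase that marks it for degradation, and Mdm2 is itself a p53 target, so the pair forms a feedback loop. Control of p53 is largely at the level of the protein, through its stability and modification, which transcript counts do not show. Stabilised p53 binds DNA as a tetramer and activates genes of cell cycle arrest, such as Cdkn1a, of stress signalling, and of the mitochondrial route of apoptosis. In that route BH3-only proteins such as the product of Bbc3 relieve the block that Bcl2 and Mcl1 place on the pore-former Bax, and neural progenitors of the embryonic forebrain are known to use it.

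p53 recognises pairs of a 10-base element, here called the p53 decamer and searched by its consensus, which reads the same on both strands. The promoter windows below run from 250 bases before to 50 bases after an annotated start in RefSeq (GRCm38.p6), and they are shown because they belong to the genes whose counts moved most closely together (Ccng1 and Cdkn1a) and to the most counted member (Bax), with Mdm2 as the feedback gene. They are Cdkn1a at chr17:29090729-29091028 on the plus strand, Ccng1 at chr11:40755237-40755536 on the minus strand, Bax at chr7:45466849-45467148 on the minus strand and Mdm2 at chr10:117710709-117711008 on the minus strand. Each is written 5′ to 3′ on the strand of its gene, and capitals mark the decamers found.
Cdkn1a: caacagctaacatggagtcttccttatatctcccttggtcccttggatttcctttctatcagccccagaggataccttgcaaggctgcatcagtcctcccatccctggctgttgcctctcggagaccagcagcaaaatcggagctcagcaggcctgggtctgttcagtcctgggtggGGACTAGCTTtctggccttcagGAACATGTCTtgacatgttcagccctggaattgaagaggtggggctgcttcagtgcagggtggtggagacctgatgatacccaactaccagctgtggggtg
Ccng1: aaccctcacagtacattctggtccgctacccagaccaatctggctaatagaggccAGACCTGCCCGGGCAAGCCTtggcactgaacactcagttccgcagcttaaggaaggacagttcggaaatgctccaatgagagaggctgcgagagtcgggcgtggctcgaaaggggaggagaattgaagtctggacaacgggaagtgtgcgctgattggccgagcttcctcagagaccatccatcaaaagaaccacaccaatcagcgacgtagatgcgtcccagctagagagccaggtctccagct
Bax: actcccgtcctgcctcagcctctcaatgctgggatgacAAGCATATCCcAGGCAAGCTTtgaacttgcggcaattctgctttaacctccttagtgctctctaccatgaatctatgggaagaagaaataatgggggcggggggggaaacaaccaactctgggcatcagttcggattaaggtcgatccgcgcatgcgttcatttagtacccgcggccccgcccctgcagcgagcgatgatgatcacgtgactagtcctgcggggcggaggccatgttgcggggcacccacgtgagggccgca
Mdm2: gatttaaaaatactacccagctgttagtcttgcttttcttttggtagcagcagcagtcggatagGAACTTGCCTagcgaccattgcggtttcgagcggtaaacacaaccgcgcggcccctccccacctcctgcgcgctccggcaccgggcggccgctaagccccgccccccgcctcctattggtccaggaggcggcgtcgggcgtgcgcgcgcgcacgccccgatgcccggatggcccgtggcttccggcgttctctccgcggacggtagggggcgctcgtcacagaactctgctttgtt

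Windows were found for 8 of the 10 members and for Cdkn1a, 12 in all, since Bbc3 has 3 annotated starts and Cdkn1a has 2; Trp53inp1 and Zmat3 had no entry. A perfect p53 decamer lay in 5 of these 12 windows, those of Trp53, Mdm2, Bax, Ccng1 and the upstream start of Cdkn1a, and in 8.36% of the 32851 windows of the whole table. A pair of decamers with at most 2 mismatches in all and at most 13 bases between them lay in 3 of the 12, and in 10.1% of all windows. The pair of Cdkn1a had 0 mismatches and began at base -73 from the start site. Ccng1 had a pair with 1 mismatch, its decamers directly adjoining, which began at base -195. For Bax the pair also had 1 mismatch and began at base -212. The single Mdm2 decamer began at base -186. No perfect decamer and no such pair lay in the windows of Phlda3, Bbc3, Bcl2 or Mcl1. These matches are letters in a window and not measured binding sites.

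Of 4000 barcodes, 3765 had 500 or more detected genes and no more than 10% mitochondrial UMIs, and these were kept as cells. They held 17395968 UMIs, with a median of 3869 per cell (638 to 54060) and a median of 1993 genes. Nothing in the table ties a barcode to either sample. It was therefore handled as 1 sample, barcodes shared by the samples could not be counted, and no p-value was computed. The barcodes are distinct, with 25 pairs that differ by 1 base, and no doublets were removed. The series text names nuclei where the protocols describe dissociated cells, and barcodes are called cells here. In the neuron-like, cycling and non-cycling cells defined below, the endothelial list (5 of 6 markers in the table) was at 0, 4.25 and 6.40 CPM and the mural list (2 of 5) at 14.2, 9.67 and 13.1 CPM; of 7 microglia or macrophage markers only 1 was in the table. Lists that neural progenitors share were higher, the oligodendrocyte precursor list (8 of 8) at 794, 1746 and 2359 CPM and the astrocyte list (9 of 9) at 553, 1516 and 1958 CPM. Levels are UMI counts scaled to a common total of 1000000 (CPM) with exact 95% Poisson intervals, and ratios carry exact conditional binomial 95% intervals. Both cover counting error only and leave out the variation between cells and cultures.

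All 10 members were detected in these unchallenged colonies. Cdkn1a had 16198 UMIs, 931 CPM (917 to 946). Trp53 (chr11:69580359-69591873, plus strand, mm10) had 3236 UMIs and 186 CPM (180 to 193). Its inhibitor Mdm2 (chr10:117688875-117710758, minus strand) had 1206 UMIs and 69.3 CPM (65.5 to 73.4).

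The target genes of arrest and signalling were led by Ccng1 (chr11:40748552-40755311, minus strand), which encodes cyclin G1, a partner of protein phosphatase 2A, with 6225 UMIs and 358 CPM (349 to 367). Trp53inp1 (chr4:11156431-11174379, plus strand), the gene of a stress-induced nuclear protein that takes part in p53 signalling, had 1374 UMIs and 79.0 CPM. Phlda3 (chr1:135766119-135769136, plus strand), which encodes a pleckstrin-homology protein that opposes Akt, had 1490 UMIs and 85.7 CPM. Zmat3 (chr3:32334792-32366014, minus strand), the gene of a zinc-finger RNA-binding protein, had 1419 UMIs and 81.6 CPM.

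Among the BCL2 family, Bax (chr7:45461697-45466898, minus strand) had 10977 UMIs and 631 CPM (619 to 643). Bbc3 (chr7:16308393-16318205, plus strand), which encodes the BH3-only activator of death PUMA, had 681 UMIs and 39.1 CPM (36.3 to 42.2). The survival gene Mcl1 (chr3:95658788-95663176, plus strand) had 1030 UMIs and 59.2 CPM (55.6 to 62.9). Bcl2 (chr1:106538178-106714274, minus strand), the founding survival gene of the family, had 314 UMIs and 18.1 CPM (16.1 to 20.2). Its annotated span holds D630008O14Rik on the other strand, also a row of the table, and the sources do not say whether counting used the strand. The levels were not calibrated between genes, and differences in level between genes were not tested.

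To separate dividing from other cells, 1000 UMIs were drawn at random from every cell, and a cell was called cycling if at least 1 of them was from Mki67, Top2a, Cdk1, Rrm2, Pcna or Ube2c. Of 3549 cells deep enough and not neuron-like, 2108 were cycling (59.4%) and 1441 were non-cycling. The call has a soft edge: 748 cells had exactly 1 UMI of these genes. Of 27 neuron-like cells, 7 passed the call (25.9%, exact binomial interval 11.1 to 46.3). Whether that share is its background in the other cells was not tested. The median depth was 4363.5 UMIs in cycling and 3645 UMIs in non-cycling cells.

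**Figure D1:**
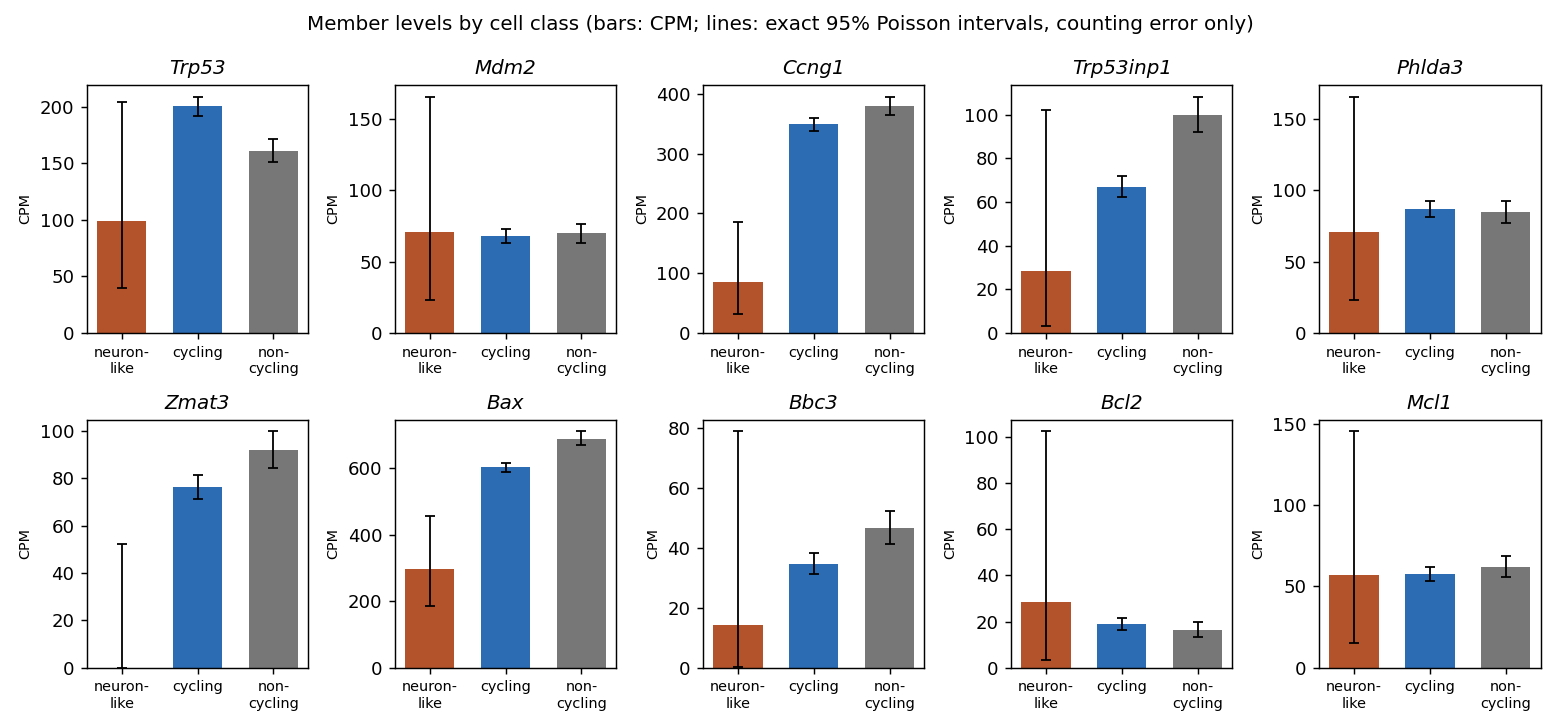
Levels in CPM (y axes from 0, 1 panel per gene) of the 10 members in neuron-like, cycling and non-cycling cells. Bars are CPM and lines exact 95% Poisson intervals; Trp53 is highest in cycling cells, Trp53inp1, Bax, Zmat3 and Bbc3 are lower in cycling than in non-cycling cells, and the neuron-like intervals are wide except where Bax, Ccng1 and Zmat3 stay under the other classes.

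Trp53 was somewhat higher, and 5 other members were somewhat lower, in cycling than in non-cycling cells. Trp53 was at 200 CPM (192 to 209) in cycling and 161 CPM (151 to 172) in non-cycling cells, a ratio of 1.24 (1.15 to 1.34), with its whole interval above 1. For 5 members, Trp53inp1, Bbc3, Zmat3, Bax and Ccng1, the whole interval lay below 1. These 6 intervals stayed on the same side of 1 in each of the 10 other settings run. Among these, the setting that called genes on the ratio alone left each interval as it was and could not move it. Over all 11003 genes with at least 50 UMIs in both classes together, 18.1% had the whole interval above 1 and 22.5% below it. Intervals of well-counted genes clear 1 more readily, and Bax, Ccng1 and Trp53 rank 198, 469 and 1108 by UMIs among all genes. These shares, and those given below for other comparisons, were not matched to the members by UMI count.

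The largest of these differences was in Trp53inp1, at 67.1 CPM in cycling and 100.03 CPM in non-cycling cells, a ratio of 0.671 (0.602 to 0.748). Bbc3 was at 34.8 CPM in cycling and 46.6 CPM in non-cycling cells (0.747, 0.639 to 0.874). Zmat3 had a ratio of 0.830 (0.745 to 0.926), from 76.2 CPM in cycling and 91.8 CPM in non-cycling cells. The well-counted Bax and Ccng1 were also lower in cycling cells, with ratios that lay inside the interval of Zmat3. Bax was at 602 CPM in cycling and 689 CPM in non-cycling cells (0.874, 0.841 to 0.909). Ccng1 was at 349 CPM in cycling and 379 CPM in non-cycling cells (0.920, 0.874 to 0.969). Cdkn1a had a similar ratio of 0.897 (0.869 to 0.926). The intervals of Mdm2 (0.977, 0.867 to 1.10), Phlda3 (1.03, 0.924 to 1.15), Mcl1 (0.927, 0.815 to 1.06) and Bcl2 (1.15, 0.899 to 1.47) held 1. For the last 2 of these genes that depends on the thinning: Bcl2 had 1.39 (1.08 to 1.81) with another random draw and 1.39 (1.02 to 1.91) at 2000 UMIs, and Mcl1 had 0.790 (0.684 to 0.915) at 2000 UMIs.

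A gene was counted as changed only when its whole interval lay above 1.5 or below the inverse of 1.5. By that rule 0 of the 10 members changed, where the background was 3.63% of genes above and 0.673% below. The members had a median ratio of 0.924 and all genes one of 0.969. Of 35 measured other p53 targets, 2 lay below the threshold: Btg2, an antiproliferative gene, with a ratio of 0.602, and Ddit4, an inhibitor of mTORC1 signalling, with 0.573. The other 33 lay on neither side. None of 9 other BCL2 family genes passed, although Bok, a Bax relative, had a ratio of 1.59 (1.30 to 1.95) and the survival gene Bcl2l1 one of 0.739. Among 16 p53 regulators the checkpoint kinase genes Chek1 and Chek2 lay above it, with ratios of 2.64 and 2.19, and Ppm1d, the phosphatase that dampens p53, had 1.57 without passing. None of 10 caspase machinery genes passed, and their median ratio was 1.19.

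Cycling cells were then divided by whether genes of S phase or of G2 and M phase had more UMIs. This gave 449 S-leading and 1535 G2M-leading cells, with 124 ties left out. The lists, with 43 and 54 genes in the table, were not scaled to each other. Even in non-cycling cells the S phase list stood at 2296 CPM and the G2M list at 4415 CPM. A cell that leans to neither phase can thus be G2M-leading, and the part of this in the ratios was not tested. Ccng1 showed the clearest difference, at 263 CPM (242 to 286) in S-leading and 373 CPM (360 to 387) in G2M-leading cells, a ratio of 0.704 (0.643 to 0.770). Mdm2 was at 54.7 CPM in S-leading and 71.98 CPM in G2M-leading cells (0.760, 0.619 to 0.927). Bbc3 was at 25.3 CPM in S-leading and 37.5 CPM in G2M-leading cells (0.675, 0.497 to 0.901). Trp53inp1 had a ratio of 0.794 (0.648 to 0.968), Phlda3 one of 0.843 (0.708 to 0.998) and Cdkn1a one of 0.854 (0.810 to 0.900).

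Thus 5 members had the whole interval below 1, against 8.81% of the 10134 genes measured. Trp53 alone had it above 1, against 11.5% of genes, at 226 CPM in S-leading and 195 CPM in G2M-leading cells (1.16, 1.04 to 1.28). These shares were again not matched to the members by UMI count. In 6 other settings the intervals of Ccng1, Bbc3 and Trp53 stayed on their side of 1 in 6, that of Trp53inp1 in 5 and those of Mdm2 and Phlda3 in 4 each. With another random draw Mdm2 had 0.912 (0.755 to 1.10), at 2000 UMIs Mdm2 had 0.864 (0.723 to 1.03) and Phlda3 0.859 (0.734 to 1.001), and with a mitochondrial limit of 5% Trp53inp1 had 0.823 (0.669 to 1.01) and Phlda3 0.845 (0.709 to 1.003). No difference was seen beyond counting error for Bax (0.974, 0.915 to 1.04), Zmat3 (1.12, 0.945 to 1.33), Bcl2 (0.910, 0.625 to 1.30) or Mcl1 (1.04, 0.845 to 1.27). Past the 1.5 threshold there were 0 of 10 members, and 0.582% of genes above and 1.55% below. On the other lists Ddit4 lay below it at 0.567, 1 of 34 other p53 targets, and Chek1 above it at 1.84, 1 of 16 regulators. The 9 other BCL2 family genes and 8 caspase genes measured had none on either side.

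**Figure D2:**
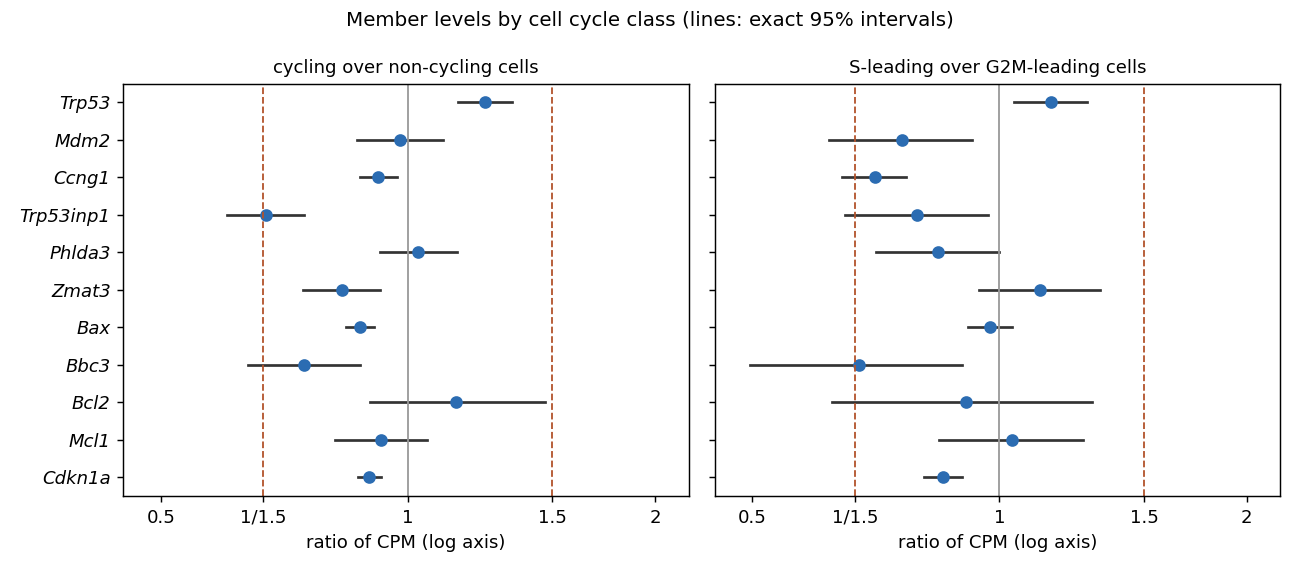
Ratio of CPM (log axis) of each member and Cdkn1a in cycling over non-cycling cells (left) and in S-leading over G2M-leading cells (right). Points are ratios, lines exact 95% intervals and dashed lines the threshold of 1.5 either way; Trp53 sits right of 1 in both panels, Trp53inp1 is farthest left at 0.671 in the left panel, and Ccng1, at 0.704, has a short interval clear of 1 in the right panel.

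A cluster of 30 cells was neuron-like: 11 of its 13 measured immature neuron markers lay above the 1.5 threshold against the other cells, and Stmn2, Tubb3 and Nsg2 were among its 10 leading genes. Of these 13 markers 10 had also helped to form the cluster. The immature neuron list was at 8490 CPM in neuron-like and 1108 CPM in non-cycling cells, and the radial glia or neural stem cell list at 4209 CPM in neuron-like and 15164 CPM in non-cycling cells. The neuron-like cells had only 70555 UMIs in all and a median of 1790.5, and mitochondrial genes took 4.24% of these, against 3.30% in non-cycling cells. Their part in the differences below was not tested.

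Of the p53 genes, 3 of 10 lay below the threshold in neuron-like against non-cycling cells, where the background was 1.46% of 9176 genes below and 4.70% above. At this depth few genes can pass below: in simulated counts 14% of genes set to a ratio of 0.25 did. Bax and Ccng1 rank 198 and 469 by UMIs among all genes, so for them the background below is not a like comparison. Ccng1 had 6 UMIs, 85.0 CPM (31.2 to 185), in neuron-like and 379 CPM (364 to 395) in non-cycling cells, a ratio of 0.224 (0.0822 to 0.489). Bax had 21 UMIs, 298 CPM (184 to 455), in neuron-like and 689 CPM (668 to 710) in non-cycling cells (0.432, 0.267 to 0.661). Zmat3 had 0 UMIs in neuron-like cells, where the limit of 3 counts is 42.5 CPM, and 91.8 CPM in non-cycling cells, so against that limit it was at least 2.16-fold lower, while the exact interval of the ratio reached up to 0.571. Cdkn1a, outside the 10, was at 340 CPM in neuron-like and 1002 CPM in non-cycling cells, a ratio of 0.340 (0.217 to 0.506). Of 11 other settings tried, Ccng1 passed in 11, Zmat3 in 8 and Bax in 5, so the call of Bax rests on the settings chosen. Several of these settings, such as other thinning, changed only the comparison cells and left the sparse neuron-like counts as they were. Finer clusters gave a neuron-like cluster of the same size, median depth and leading genes. The 11 settings are therefore not 11 separate checks.

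The other 7 members had intervals that held 1 at the depth of the neuron-like cells. Trp53 had 7 UMIs there, with a ratio of 0.615 (0.247 to 1.27). Trp53inp1 had 2, with 0.283 (0.0342 to 1.03), and its whole interval lay below 1 in 6 of 11 other settings. Mdm2 and Phlda3 had 5 UMIs each, with ratios of 1.02 (0.328 to 2.39) and 0.839 (0.271 to 1.97). Bbc3 had 1 UMI, a ratio of 0.304 (0.00768 to 1.71). The survival genes Bcl2, with 2 UMIs (1.73, 0.207 to 6.41), and Mcl1, with 4 UMIs (0.915, 0.248 to 2.36), were likewise too sparse to separate the classes. Of 33 other p53 targets measured, Btg1, an antiproliferative gene, and Cyfip2, an actin regulator abundant in neurons, lay above the threshold with ratios of 4.34 and 6.17, and Rps27l lay below it with 0.412. Rps27l is close in sequence to Rps27, and its counts are uncertain. None of 9 other BCL2 family genes, 15 regulators or 8 caspase genes measured passed on either side.

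Next, the members were set against Cdkn1a within the progenitors, at equal depth. After thinning to 1000 UMIs, 1653 cells had 0 Cdkn1a UMIs (46.6%), 1035 had 1 (29.2%), 513 had 2 (14.5%) and 348 had 3 or more (9.81%). Its variance over cells was 1.46 times its mean, where pure counting noise gives about 1, so cells differed in Cdkn1a beyond counting noise. Among the members the same quotient was highest for Ccng1, at 1.19, and lowest for Zmat3, at 1.01.

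Ccng1 was higher at each step of Cdkn1a: it had 26.4 UMIs per 100 cells in cells with 0 Cdkn1a UMIs, 34.7 with 1, 43.3 with 2 and 49.4 with 3 or more. Trp53inp1 had 6.72, 11.01, 10.9 and 14.7 UMIs per 100 cells along the same classes. Phlda3 had 5.69, 9.57, 7.60 and 11.8, and Mdm2 had 6.41, 7.63, 7.02 and 10.9. For these 3 genes the class with 3 or more was the highest and the class with 0 the lowest, without an even rise between. Bbc3 had 3.09, 3.77, 8.19 and 6.03 UMIs per 100 cells, and Bax 57.9, 67.7, 73.9 and 71.0, so both were higher in the classes with 2 and with 3 or more than in those with 0 and with 1. Zmat3 had 6.23, 9.95, 10.3 and 8.62, and Mcl1 had 5.26, 5.02, 7.02 and 7.18. Trp53 itself showed no trend in these thinned counts, with 20.3, 19.3, 16.4 and 20.4 UMIs per 100 cells. On the UMIs left out of thinning, described below, Trp53 was lower in the class with 3 or more than with 0 (0.796, 0.679 to 0.928). Bcl2 had 1.81, 1.55, 1.17 and 1.15 UMIs per 100 cells.

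**Figure D3:**
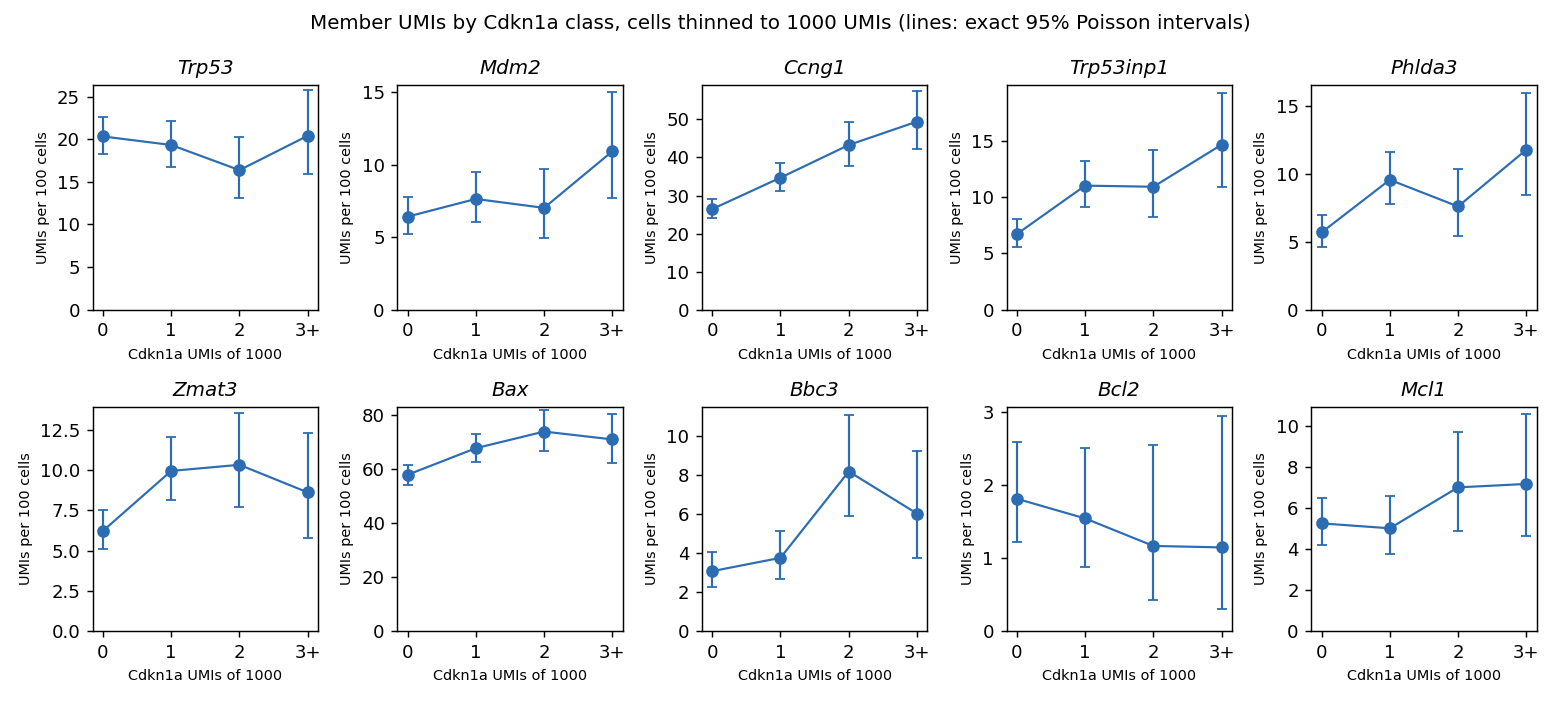
UMIs per 100 cells (y axes from 0, 1 panel per gene), after thinning to 1000 UMIs, of each member in cells with 0, 1, 2 and 3 or more Cdkn1a UMIs. Points are levels and lines exact 95% Poisson intervals; Ccng1 climbs to 49.4 in the class with 3 or more while Trp53 ends at 20.4, where it began at 20.3.

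Between the class with 3 or more Cdkn1a UMIs (the upper class) and the class with 0 (the lower class), 2 of the 9 members with enough counts passed the threshold, where 0.115% of 6099 genes lay above it and 0.0328% below. They were Ccng1, with 172 UMIs in the upper and 437 in the lower class and a ratio of 1.87 (1.56 to 2.24), and Trp53inp1, with 51 UMIs in the upper and 111 in the lower class and a ratio of 2.18 (1.53 to 3.07). Phlda3 (2.07, 1.40 to 3.02), Bbc3 (1.96, 1.12 to 3.31), Mdm2 (1.70, 1.14 to 2.49) and Bax (1.23, 1.06 to 1.41) had the whole interval above 1. That made 6 of 9 members, against 3.94% of all genes, and 0 of 9 had it below 1, against 3.87%. Here too the shares were not matched to the members by UMI count. The intervals of Zmat3 (1.38, 0.889 to 2.10), Mcl1 (1.36, 0.838 to 2.15) and Trp53 (1.004, 0.766 to 1.30) held 1, and Bcl2, with 4 UMIs in the upper and 30 in the lower class, was under the minimum. The median ratio was 1.70 over the 9 members and 0.976 over all genes. Under 11 other settings Ccng1 and Trp53inp1 each passed in 8, and neither passed within cycling cells at this depth.

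The 2 classes differed in other ways whose part in these ratios was not tested. In the upper class 51.4% of cells were cycling, against 60.9% in the lower. The median depth before thinning was 3821.5 UMIs in the upper and 4049 UMIs in the lower class. Mitochondrial UMIs were 3.10% in the upper and 2.97% in the lower class, and the nuclear RNA Malat1 was at 3287 CPM in the upper and 3043 CPM in the lower class. The integrated stress response list was at 396 CPM in the upper and 497 CPM in the lower class, the hypoxia list at 194 CPM in the upper and 239 CPM in the lower, and the immediate early list at 722 CPM in the upper and 632 CPM in the lower.

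Within non-cycling cells Ccng1 again passed, with a ratio of 2.30 (1.77 to 2.96). It was 1 of 8 measured members, where 0.0919% of genes lay above the threshold and 0.184% below. Together with Trp53inp1 (2.44, 1.49 to 3.95) and Phlda3 (2.59, 1.46 to 4.53) it made 3 members with the whole interval above 1, against 3.92% of genes, and 0 had it below 1, against 3.64%. Within cycling cells 0 of 8 passed, where 0.00% of genes lay above the threshold and 0.0901% below. There Ccng1 (1.51, 1.15 to 1.96), Trp53inp1 (1.84, 1.07 to 3.06) and Mdm2 (1.91, 1.09 to 3.21) had the whole interval above 1, against 2.88% of genes, and 0 of 8 had it below 1, against 2.21%. Whether the ratios differ between cycling and non-cycling cells was not tested.

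Thinning uses only some of each cell's UMIs, so the same classes were also compared on the UMIs left out, which share no molecule with the class call; this was added after the data were seen. Then 3 of 10 members lay above the threshold, where 0.294% of 9516 genes did and 0.105% lay below: Ccng1 at 538 CPM in the upper and 304 CPM in the lower class (1.77, 1.62 to 1.93), Trp53inp1 at 125 CPM in the upper and 53.4 CPM in the lower (2.35, 1.93 to 2.84), and Phlda3 at 136 CPM in the upper and 70.7 CPM in the lower (1.92, 1.60 to 2.29). Bbc3 (2.0001, 1.499 to 2.64) and Mdm2 (1.76, 1.42 to 2.16) followed, with the lower bound under 1.5. Bax (1.26, 1.17 to 1.35) and Zmat3 (1.39, 1.13 to 1.69) had smaller ratios above 1. Trp53 was lower, at 150 CPM in the upper and 188 CPM in the lower class (0.796, 0.679 to 0.928), and the survival genes Bcl2 (0.960, 0.599 to 1.48) and Mcl1 (0.951, 0.725 to 1.23) showed no difference beyond counting error. In all, 7 of 10 members had the whole interval above 1, against 6.53% of genes, and 1 below it, against 6.67%. Within cycling cells 4 of 10 passed, Ccng1, Trp53inp1, Phlda3 and Mdm2, with ratios of 1.88 to 2.49, where 0.223% of genes lay above the threshold and 0.117% below. Within non-cycling cells 1 of 9 passed, Trp53inp1 with 2.03 (1.52 to 2.69), where 0.147% lay above and 0.103% below.

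On the wider p53 list 14 of 17 other targets measured at equal depth had a ratio over 1 (82.4%), as did 45.4% of all genes. Their median was 1.46, against 0.976 over all genes, and 1 of 17 passed the threshold, where 0.115% of all genes lay above it: Gdf15, a secreted stress cytokine, at 2.78 (1.72 to 4.41). On the left-out UMIs 9 of 33 passed, all above, where the background was 0.294%: Ak1, Btg2, Dcxr, Gdf15, Perp, Pmaip1, Ptp4a3, Sesn2 and Tnfrsf10b, among them the BH3-only gene Pmaip1 and the death receptor gene Tnfrsf10b. At equal depth none passed of 5 other BCL2 family genes, of 9 regulators, where Ppm1d had 2.24, or of 6 caspase genes, where Cycs, the cytochrome c gene, had 0.523.

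Correlations over the 3549 cells described the same pattern, at the small sizes that sparse counts allow. A weak correlation in such counts is no finding by itself, and all points share the library and the thinned depth. Of 3836 other genes with a mean of at least 0.05 UMIs per thinned cell, Ccng1 had the highest Pearson r with Cdkn1a, 0.129. Trp53inp1 ranked 7 (0.0760), Bax 9 (0.0711), Phlda3 13 (0.0677), Mdm2 49 (0.0494), Zmat3 81 (0.0437), Mcl1 159 (0.0349) and Trp53 2709 (-0.0121). Bbc3 (0.0586) and Bcl2 (-0.0219) were too low to rank.

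Thus 5 of the 8 ranked members were among the 50 genes nearest to Cdkn1a, as were 5 of 11 other p53 targets: Rps27l, Btg2, Ptp4a3, Ddit4 and Dcxr. The 99th percentile of r over all ranked genes was 0.0517. At 2000 UMIs, in 3042 cells and among 6001 genes, Ccng1 (0.193) and Trp53inp1 (0.179) ranked 1 and 2, Phlda3 13, Bbc3 20, Mdm2 22 and Bax 29, while Zmat3 ranked 455, Mcl1 1879 and Trp53 4123. In all, 6 of 9 ranked members and 9 of 17 other targets were then in the top 50.

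**Figure D4:**
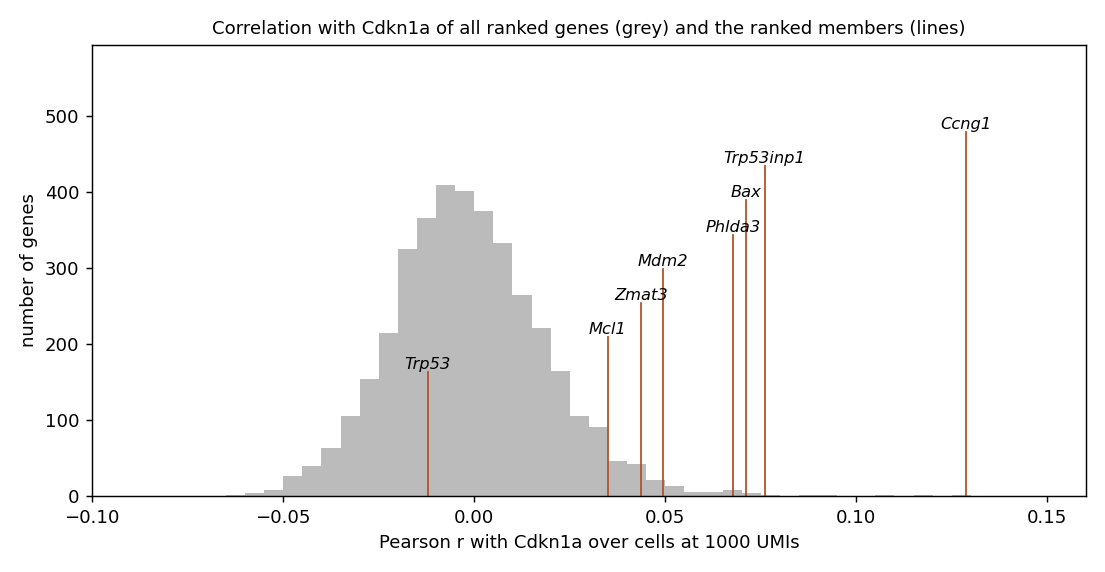
Histogram (y axis, number of genes) of Pearson r with Cdkn1a (x axis) over the 3836 ranked genes in 3549 cells at 1000 UMIs, with a line at each of the 8 ranked members, whose heights only carry the names. Ccng1 stands at the right edge, at 0.129, and Trp53 lies within the bulk, at -0.0121.

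Most pairs of target genes also had a weak positive r. Among the 7 target genes (Mdm2, Bax, Ccng1, Trp53inp1, Phlda3, Zmat3 and Bbc3) and Cdkn1a, 26 of 28 pairs were positive at each depth. The median was 0.0377 at 1000 UMIs and 0.0539 at 2000 UMIs. These pairs include those with Cdkn1a, and the share of positive r over all gene pairs was not computed. The negative pairs were Mdm2 with Bax and Bax with Bbc3 at 1000 UMIs, and Zmat3 with Mdm2 and with Bax at 2000 UMIs. Of the 27 pairs that hold Trp53, Bcl2 or Mcl1, 12 were positive at each depth, with medians of -0.00403 and -0.00396. Bbc3 was nearest to Ccng1 of all genes at 1000 UMIs (0.0744) and to Cdkn1a at 2000 UMIs. Ccng1 was nearest to Cdkn1a and then to Cox6b2 (0.103), a subunit gene of cytochrome c oxidase, and Bax was nearest to Rps27l (0.0830) and then to Cdkn1a.

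Trp53inp1 had Cdkn1a next after Pnrc1, and Phlda3 had it after Dcxr and Dhrs1. At 1000 UMIs Mdm2 was nearest to the nuclear RNA Malat1 (0.110), Prrc2a and Paxbp1, with Cdkn1a at rank 18. At 2000 UMIs its nearest genes were Cdkn1a, Gdf15 and Ccng1. Trp53 was nearest to Srsf6, Dut and Klhdc2 at 1000 UMIs and to Tyms, Hirip3 and Snrpd1 at 2000 UMIs; Dut and Tyms encode enzymes of thymidine nucleotide supply. For Zmat3 the nearest genes were Ccnd2, Pisd and Aaas, for Bcl2 Mta2, Stt3a and Nop14, and for Mcl1 Ppp2r2d, Spast and Mcm6, and none of these was among the nearest 3 at 2000 UMIs.

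**Figure D5:**
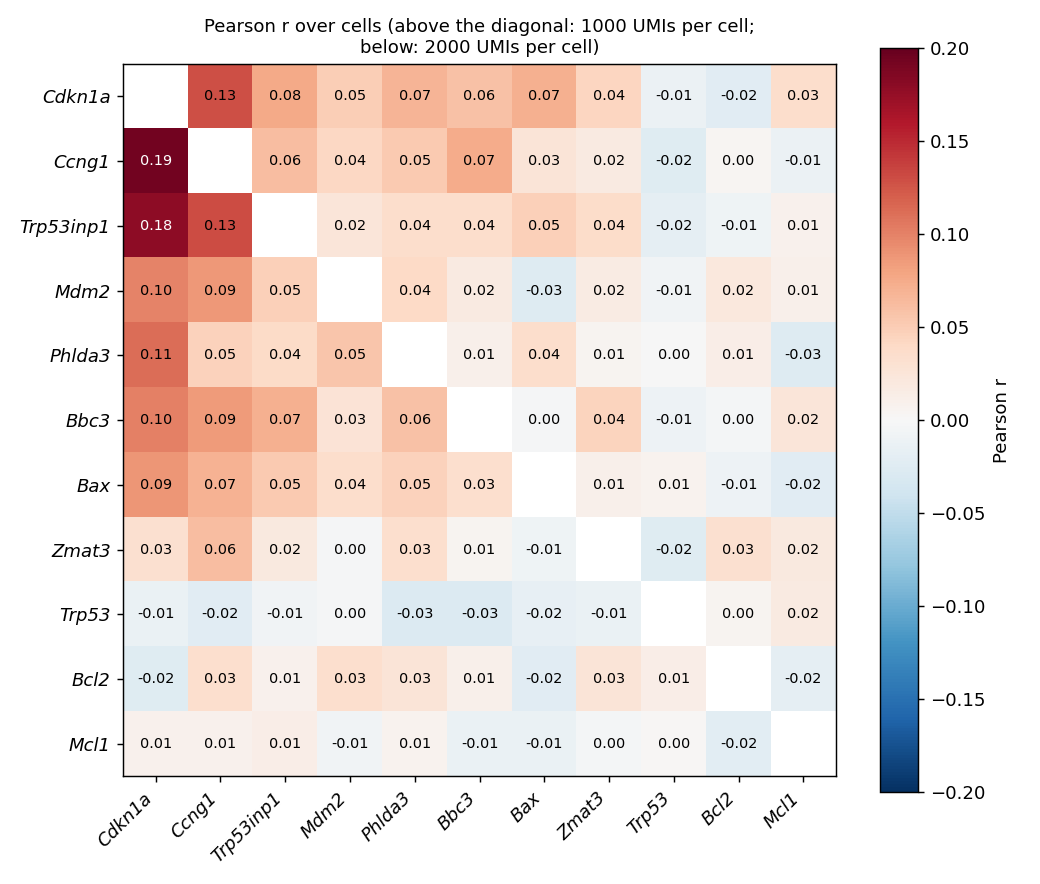
Pearson r between the members and Cdkn1a over cells thinned to 1000 UMIs (above the diagonal, 3549 cells) and to 2000 UMIs (below it, 3042 cells), as coloured squares with the value written in each. The 7 target genes and Cdkn1a form a block of mostly positive values, and the rows of Trp53, Bcl2 and Mcl1 are near 0.

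Across the 8 clusters of at least 100 cells, which were made without the members, the intervals of the highest and the lowest cluster were compared. They lay apart for 7 of the 10, that is, each except Phlda3, Bcl2 and Mcl1. The same held for 48.3% of the 11057 genes measured. For each of the 7 but Bbc3, the highest or the lowest was cluster 8, the shallow cluster described below. This count was not run without cluster 8. Cluster 4, 578 cells of which 26.2% were cycling, had the highest Ccng1 (463 CPM, 440 to 487), Bax (722 CPM) and Cdkn1a (1117 CPM). Trp53 was highest in clusters 3 and 2, at 229 and 224 CPM, and was at 145 CPM in cluster 4. Trp53 thus peaked in other clusters than Ccng1, Bax and Cdkn1a.

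In cluster 7, 140 cells whose hypoxia list stood at 2493 CPM, Bbc3 reached its highest level, 91.7 CPM (66.1 to 124). That interval overlapped the one of Bbc3 in cluster 8 (83.3 CPM, 39.9 to 153). Mdm2 (45.8 CPM, 28.4 to 70.1) and Zmat3 (50.2 CPM, 31.8 to 75.3) were lowest in cluster 7 among the 8 large clusters. Both intervals held the levels of several other clusters. Cluster 8 held 113 shallow cells, with a median of 933 UMIs and Malat1 at 51392 CPM, and is left unnamed. There Mdm2 was at 217 CPM (141 to 317), against 45.8 to 77.4 CPM in the other 8 clusters. Trp53inp1 at 208 CPM and Zmat3 at 150.0 CPM were also highest. Bax (425 CPM), Ccng1 (267 CPM) and Cdkn1a (483 CPM, 367 to 625), by contrast, were the lowest of the 8 large clusters. Mdm2, Trp53inp1 and Zmat3 thus peaked in the large cluster where Cdkn1a was lowest. The part of depth and of nuclear RNA in these levels was not tested. Cells of cluster 8 are mostly too shallow for the comparisons at equal depth, and leaving the cluster out changed none of the member counts in the 3 comparisons where this was run (cycling, neuron-like and Cdkn1a class).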

How the data were processed

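The authors deposited raw UMI counts, whole numbers with genes in rows and barcodes in columns, and no normalization. Both samples are Drop-seq of dissociated primary neurospheres, per the labels' protocols, planned at 60000 reads per cell. Genome build mm10 is named in the submitters' processing notes. Aligner, counting program, annotation and the choice of barcodes: not given in the sources used here. All 4000 barcode columns carry no sample name.

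The members and gene lists were chosen with earlier results of these data known. Cells were thinned without replacement (seed 0). S-leading and G2M-leading cells were split by the summed thinned UMIs of S phase and G2M phase lists. Clusters came from scanpy 1.11.5 and leidenalg 0.10.2 (genes in at least 5 cells, 10000 UMIs per cell, log scale, 2000 variable genes, 30 components, 15 neighbours, resolution 0.8), with member, list, cell cycle, mitochondrial and ribosomal protein genes held out. A cluster was named neuron-like with at least 3 markers above the threshold and the most leading genes. Intervals came from scipy 1.17.1 with numpy 2.4.6 and pandas 2.3.3 under Python 3.11.15, figures from matplotlib 3.10.9, and the scripts were tested on simulated counts. No doublet caller was run; leaving out the 5% of cells with the most UMIs was an alternative. Genes named are the members, Cdkn1a, genes of the 4 lists (other p53 targets, other BCL2 family, p53 regulators, caspase machinery) with at least 50 UMIs, and the 3 genes most like each member. Positions were read from GENCODE M21 and promoters from RefSeq, both on the mouse GRCm38 assembly. Depth per cell sets the precision: 186 cells under 1000 UMIs were left out of the comparisons at equal depth. Other alternatives were gene minimums, a mitochondrial limit of 5%, barcodes with an unread base left out, other thinning, other class calls and finer clusters.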

Additional observations from a re-analysis of the deposited data

How the results depend on the processing

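No paired analysis was possible because both samples sit in 1 table in which no barcode is tied to a sample, and no replicate could be left out. In neuron-like over non-cycling cells 3 members passed. Only 1, Ccng1, passed with a minimum of 1000 genes, without the 5% of cells with the most UMIs, or with neuron-like cells called by marker UMIs, and 2 or 3 passed under the others. By Cdkn1a class 2 members passed. That count was 1 (Trp53inp1) without the 5% of cells with the most UMIs and with another thinning seed, 4 when thinned to 2000 UMIs (Mdm2, Ccng1, Trp53inp1 and Bbc3), 0 within cycling cells and 1 (Ccng1) within non-cycling cells, and 3 on left-out UMIs. With 2 or more Cdkn1a UMIs as the upper class Ccng1 and Bbc3 passed. In cycling over non-cycling cells 0 members passed, but calling cycling by S and G2M list UMIs gave 2, Trp53inp1 (0.493, 0.438 to 0.556) and Bbc3 (0.551, 0.465 to 0.655), with 8.13% of genes beyond the threshold. The causes of these shifts were not tested. Between S-leading and G2M-leading cells 0 passed under each alternative run. The summed level of the members was 1607 CPM, and 1601 to 1610 CPM under the alternatives. Of 490 values for single members, 475 stayed within the counting error of the main run and 15 moved more. Most settings reuse most of the same cells and UMIs. Wide intervals, such as that of Bcl2 in neuron-like cells (0.207 to 6.41), are hard to leave. The count of 475 is therefore no measure of stability. The 475 include 10 values of the ratio-only setting, which left the ratios as they were and could not move. No ratio past the threshold changed direction, but 25 of 380 ratios lay on the other side of 1 from the reported one, in Trp53, Mdm2, Phlda3, Bcl2 and Mcl1, none of them past the threshold; by Cdkn1a class, Mcl1 reached 0.905 and Trp53 0.796. Without the Malat1-rich cluster the counts for the cycling, neuron-like and Cdkn1a class comparisons were as before. Depth limits Bcl2 and all members in the neuron-like cells. The Malat1 cluster, left-out UMI, ratio-only and cluster range alternatives were chosen after seeing the data.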
